A study of Homo sapiens with 36 samples.

Results

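MYC and a group of genes that build ribosomes or make polyamines were followed across 3 breast cancer cell lines given a knockdown of DUSP4 or the MEK inhibitor AZD6244. The members were a fixed list of 46 gene symbols, each read from the array probe that carried that symbol alone, or from the brighter probe on average over 36 arrays where a gene had several. Of the 46 genes, 40 were measured, out of 17958 genes tested, and the 40 comprise MYC and 39 others. NOP56, GNL3, MYBBP1A, TSR1, DDX18 and EBNA1BP2 had no probe of their own and are not analysed here, and 3 of these 6 share a probe with other symbols.

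MYC is a transcription factor that binds DNA together with MAX, most tightly at the E-box letters CACGTG, and it is known for raising the output of genes that make ribosomes. Ribosomes are assembled in the nucleolus: RNA polymerase I copies the ribosomal RNA, small guide RNAs direct its methylation and pseudouridylation, and a large set of helicases, scaffolds and export factors turns the precursor into a small and a large subunit. ERK, the kinase downstream of MEK, phosphorylates MYC protein and raises transcription of many growth genes, ODC1 and MYC among them in several cell types, and DUSP4 is a nuclear phosphatase that removes the activating phosphates from ERK and related kinases.

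Each line had 4 groups of 3 arrays. In the siDUSP4 group, cells were transfected in suspension with 10 nM siRNA against DUSP4, and in the other 3 groups with 10 nM of a pool without a target. The AZD6244 24h and AZD6244 4h groups received 1 uM AZD6244 (selumetinib) for the last 24 h or 4 h before harvest, and the siDUSP4 and siCONTROL groups received the solvent DMSO until harvest, 96 h after transfection. The lines were MDA231 (MDA-MB-231), SUM159PT and BT549, all breast cancer cell lines and grown as single lines, so each line is 1 genetic background. The labels do not say whether the 3 arrays of a group came from separate cultures, so a p-value here reflects the spread among arrays alone, which may be technical, and 3 arrays a group limit the precision.

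The labels conflict on 2 of the lines. For 24 arrays the title and the cell line field name SUM159PT or BT549 while the source name gives the other of these 2 lines; the title was followed, and every statement that sets SUM159PT and BT549 apart rests on it. No marker here decides between them. MDA231, all treatments within a line and the mean of the 3 lines do not depend on this choice. The luminal markers ESR1 and PGR lay between 3.39 and 4.8 (ESR1) and between 3.32 and 3.72 (PGR) on the log2 scale over all 36 arrays, near the bottom of the scale, and VIM, a mesenchymal filament gene, lay between 11.61 and 12.18. Other markers of the same kinds differed from these. In siCONTROL, the epithelial keratin gene KRT8 stood at 10.98 in MDA231, 11.12 in SUM159PT and 7.34 in BT549. CDH1, also epithelial, stood at 4.30, 4.23 and 5.04 in the same order. The mesenchymal marker SPARC stood at 5.14, 11.83 and 10.34.

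The arrays and the treatments were checked first. In the siDUSP4 arrays DUSP4 was at 18.7% of its siCONTROL level in MDA231, 27.9% in SUM159PT and 21.1% in BT549. DUSP6, an immediate target of ERK, changed by -4.53, -2.91 and -1.60 on the log2 scale after 4 h of AZD6244 in the same order of lines and by -3.16, -2.28 and -0.96 after 24 h. Whether all arrays were normalized in 1 run is not stated in the sources used here. MDA231 AZD6244 4h arrays B and C and BT549 AZD6244 24h array A had the lowest upper quartiles of all 36 arrays (7.48 to 7.67). Their all-gene mean levels were 6.33 to 6.44, below the 6.56 to 6.63 of the other 33 arrays. Results that rest on these 2 groups are therefore also given without those 3 arrays where that ends a call, turns a sign or moves a called value or a count by more than 1.5 times, a setting chosen after the data were seen. Without arrays B and C the MDA231 4 h group holds 1 array, so each p-value of that group in this setting takes its spread from the other groups and assumes that the lone array varies as they do. Aligning the medians of the arrays moved the median change of all genes by more than 0.1 in several comparisons. With medians aligned it was 0.05 in MDA231 at 4 h, against -0.13 as deposited, 0.13 in SUM159PT at 4 h, against -0.01, and 0.17 in BT549 at 24 h, against -0.09. It was 0.15 in BT549 with siDUSP4, against 0.01 as deposited, and in the mean of the lines 0.06 at 4 h, against -0.05, and 0.10 at 24 h, against -0.01.

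RefSeq promoters, running from 250 bases before to 50 bases after the transcription start on GRCh38.p14, were matched by symbol for 32 of the 40 measured members and searched for CACGTG and for CCGGAA, the core that ETS factors downstream of ERK bind, counted on either strand as CCGGAA or TTCCGG. The E-box letters CACGTG, which read the same on both strands, stood in 12 of the 32 promoters (37.5%), against 1232 of 13864 promoters of tested genes (8.9%) and 7.3% of all 35116 in the table. In 10 of the 32 promoters (31.2%) it reached past the transcription start, against 171 of the 13864 tested genes (1.23%). Wholly within the 250 bases before the start it stood in 2 of the 32 (6.2%), against 7.9% of tested genes, so the excess lay at or after the start. CCGGAA stood in 16 of 32 (50%), against 23.1% of tested genes. A set of 6 windows with CACGTG is printed, 5′ to 3′ on the gene's strand with the motif in capitals, because PNO1, UTP20, WDR43 and NOP2 carry the treatment results below and FBL and SRM are the members with the motif that were not called at 24 h of AZD6244.
PNO1, chr2:68157885-68157914, plus strand: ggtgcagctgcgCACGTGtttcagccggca
UTP20, chr12:101280083-101280112, plus strand: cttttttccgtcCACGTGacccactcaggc
WDR43, chr2:28894658-28894687, plus strand: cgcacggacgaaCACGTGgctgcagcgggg
NOP2, chr12:6568242-6568271, minus strand: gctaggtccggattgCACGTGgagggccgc
FBL, chr19:39846356-39846385, minus strand: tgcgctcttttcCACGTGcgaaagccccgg
SRM, chr1:11060200-11060229, minus strand: ccggccgggcccCACGTGgcccctggagcg
The ETS core in capitals is shown for NIP7, DDX21 and ODC1, which had no CACGTG in the window and were among the members that fell most clearly.
NIP7, chr16:69339566-69339595, plus strand: acgtcacttcccTTCCGGaccacaaggggc
DDX21, chr10:68956098-68956127, plus strand: ttcctgcttcccCCGGAAgtgccttgctac
ODC1, chr2:10448399-10448428, minus strand: gcggtgtcccggCCGGAAccgatcgtggct
Members with and without a motif had close medians. The median log2 change after 24 h of AZD6244, as a mean of the lines, was -0.31 in the 12 promoters with CACGTG and -0.35 in the 20 without, and -0.37 in the 16 with CCGGAA and -0.30 in the 16 without. A match of letters is a description of the window and not a measured binding site.

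Without treatment, BT549 carried more mRNA of most ribosome assembly members than MDA231, while MYC itself was highest in SUM159PT. The siCONTROL arrays of SUM159PT had MYC levels (log2, RMA) of 11.62, 11.61 and 11.57, those of BT549 had 11.38, 11.24 and 11.21, and those of MDA231 had 10.98, 11.01 and 11.08, with no overlap between the lines. The difference SUM159PT minus MDA231 was 0.58 (limma adjusted p = 9.3e-06), BT549 minus MDA231 was 0.25 (adjusted p = 0.036) and SUM159PT minus BT549 was 0.33 (adjusted p = 0.006). The BT549 minus MDA231 difference of MYC missed the threshold in 4 of 6 fits that left out 1 array (values of 0.20 to 0.28), and the SUM159PT minus BT549 difference did so with array medians over all probes aligned (0.18, adjusted p = 0.099).

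Of the other 39 members, 27 were higher and 3 lower in BT549 than in MDA231, with a median difference of 0.58, where 26.3% of all genes were called higher and 21.8% lower. Of the 12 large-subunit assembly factors 11 were higher, with a median of 0.72, and GRWD1 was the exception (-0.01). RRS1, a factor that brings 5S RNA into the large subunit, stood at 10.39, 10.40 and 10.62 in BT549 and 8.82, 8.83 and 8.77 in MDA231, a 3.17-fold difference (adjusted p = 3.5e-11). SRM, the enzyme that makes spermidine from putrescine, stood at 11.45, 11.51 and 11.39 in BT549 and 9.90, 9.99 and 10.42 in MDA231 (difference 1.34, adjusted p = 1.9e-09). DKC1, the pseudouridine synthase of the H/ACA particles, was higher by 1.11 (adjusted p = 3.3e-14). LYAR, a nucleolar zinc finger protein, ran the other way, at 8.59, 8.55 and 8.52 in BT549 and 10.30, 9.88 and 9.90 in MDA231 (-1.48, adjusted p = 1.1e-11).

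SUM159PT against MDA231 was balanced, with 9 of the 39 higher and 10 lower (median 0.13) where 21.7% and 23.1% of all genes were called. SUM159PT against BT549 had 4 higher and 25 lower (median -0.44) where 22.3% and 27.9% were called. So the line with the most MYC mRNA was not the line with the most mRNA of the other members. Ribosomal protein genes followed a different order: 35 of 39 cytoplasmic ribosomal protein genes were higher in SUM159PT than in MDA231 and 0 lower, with a median of 0.48.

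**Figure D1:**
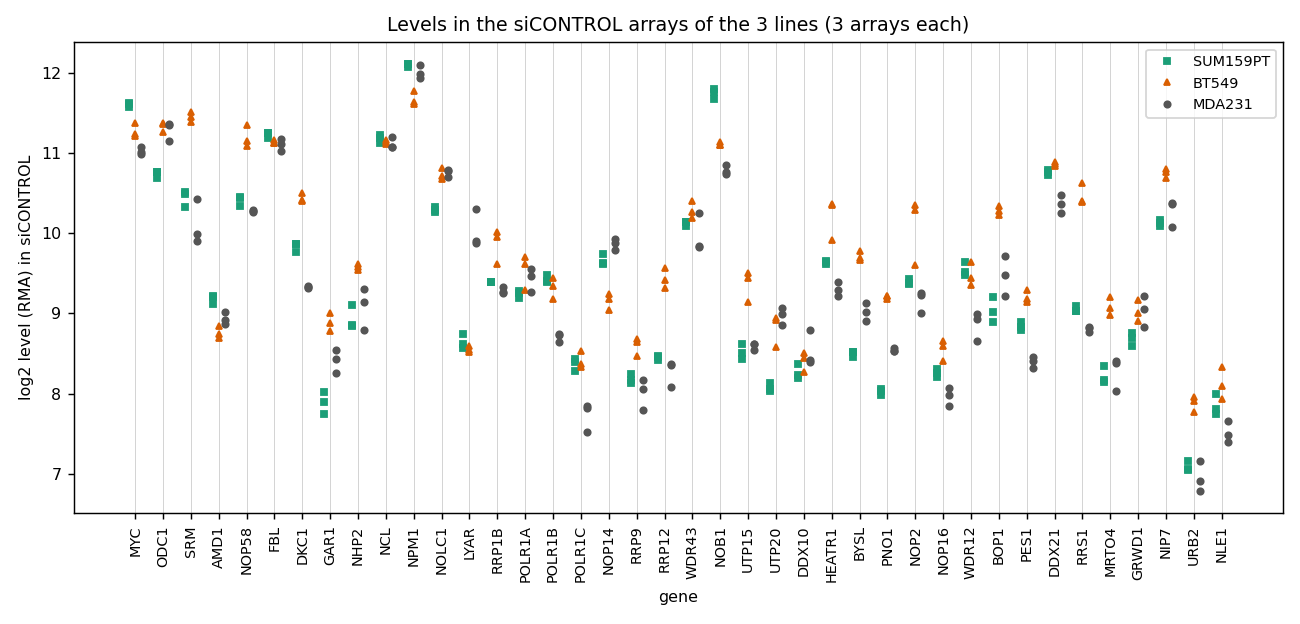
Log2 level (RMA, vertical axis) of each measured member (horizontal axis) in the 3 siCONTROL arrays of each line; each point is 1 array. RRS1, SRM and DKC1 were higher in BT549 than in MDA231 and LYAR was lower, and levels may be compared between lines for 1 gene but not between genes.

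MYC fell within 4 h of MEK inhibition in MDA231 and SUM159PT and was still lower at 24 h in MDA231 and in the mean of the lines. Its fall in BT549 at 24 h lay at the threshold and lost the call in several other settings. Its change with DUSP4 knockdown passed the test in no line. In MDA231, MYC stood at 10.24, 9.70 and 9.97 after 4 h, against 10.98, 11.01 and 11.08 in siCONTROL, a log2 change of -1.05 (95% interval -1.26 to -0.85, limma adjusted p = 4.5e-09) that left 48.2% of the siCONTROL level. Every 4 h array lay below every siCONTROL array. Without the low arrays B and C, which leaves 1 array at 4 h, the change was -0.79 (adjusted p = 1.6e-06, with the spread of the other groups). In SUM159PT, MYC stood at 11.13, 11.02 and 11.17 after 4 h, against 11.62, 11.61 and 11.57 in siCONTROL, a change of -0.50 (adjusted p = 0.0031) that left 70.9%. In BT549 it stood at 11.09, 11.08 and 11.02 after 4 h, against 11.38, 11.24 and 11.21 in siCONTROL; the groups did not overlap, and the change of -0.21 did not pass the test (adjusted p = 0.60). The response of MYC at 4 h differed between the lines (limma F test, adjusted p = 0.0013, and adjusted p = 0.0058 without the 3 low arrays, where MDA231 at 4 h is 1 array).

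After 24 h, MYC stood at 10.42, 10.37 and 10.32 in MDA231, against 10.98, 11.01 and 11.08 in siCONTROL, a change of -0.66 (adjusted p = 7.3e-06) that left 63.5%. In SUM159PT the 24 h arrays lay between 11.36 and 11.38, all below the siCONTROL arrays, and the change of -0.23 did not pass the test (adjusted p = 0.22); it passed with the quantile normalization repeated (-0.21, adjusted p = 0.044). In BT549, MYC stood at 10.78, 11.16 and 11.04 after 24 h, against 11.38, 11.24 and 11.21 in siCONTROL, a change of -0.28 at the threshold (adjusted p = 0.049). The lowest of these, array A, was 1 of the 3 low arrays, and without the 3 low arrays the change was -0.18 (adjusted p = 0.11). The call was also lost when siCONTROL array A (-0.23, adjusted p = 0.15), B (-0.30, adjusted p = 0.11) or C (-0.32, adjusted p = 0.073) was left out and with array medians aligned (-0.025). As a mean of the lines MYC changed by -0.59 at 4 h (adjusted p = 9.2e-09, 66.6% of siCONTROL) and by -0.39 at 24 h (adjusted p = 4.8e-06, 76.3%). Set directly against 4 h, the 24 h level was higher by 0.40 in MDA231 (adjusted p = 0.0033), by 0.26 in SUM159PT (adjusted p = 0.17) and by -0.07 in BT549 (adjusted p = 0.66, and 0.04 without the low array). The MDA231 difference rested on the low arrays and was 0.13 without them (adjusted p = 0.41), while the mean of the lines was 0.20 (adjusted p = 0.021) and 0.14 without them (adjusted p = 0.025).

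With siDUSP4, MYC stood at 11.13, 11.18 and 11.06 in MDA231, against 10.98, 11.01 and 11.08 in siCONTROL (0.10, adjusted p = 0.63). It stood at 11.47, 11.59 and 11.46 in SUM159PT, against 11.62, 11.61 and 11.57 in siCONTROL (-0.10, adjusted p = 0.76). It stood at 11.39, 11.31 and 11.29 in BT549, against 11.38, 11.24 and 11.21 in siCONTROL (0.05, adjusted p = 0.80). The 95% interval of the mean change over the lines ran from -0.10 to 0.14, so a mean change of MYC mRNA larger than that in either direction lies outside it.

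**Figure D2:**
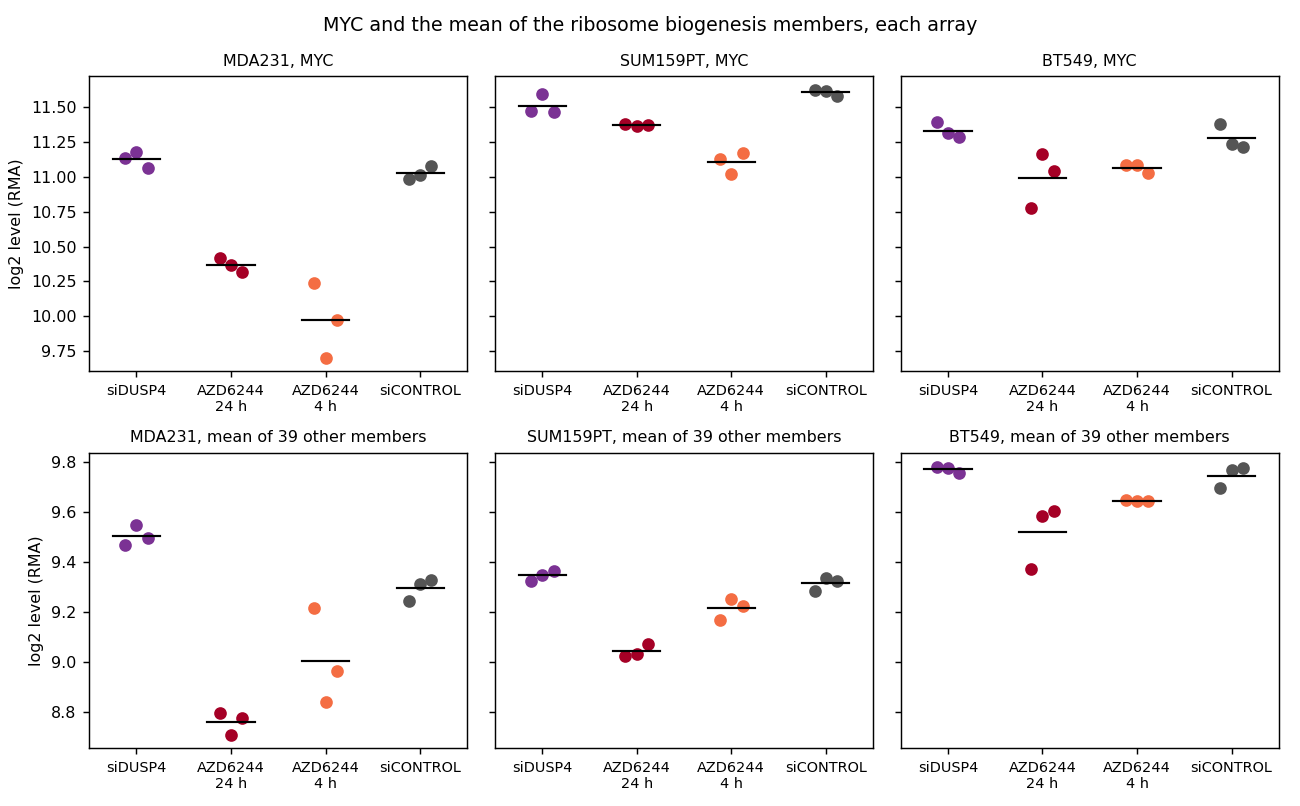
Log2 level (RMA, vertical axis) of MYC and of the mean of the other 39 members in every array, by group (horizontal axis, siDUSP4, AZD6244 24 h, AZD6244 4 h and siCONTROL) and line; each point is 1 array. MYC was lowest at 4 h in MDA231 and SUM159PT, while the mean of the other members was lower at 24 h in SUM159PT.

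The polyamine enzymes are among the best known targets of MYC. ODC1 makes putrescine from ornithine and sets the pace of the pathway, AMD1 decarboxylates S-adenosylmethionine, and SRM joins the products into spermidine. ODC1 in MDA231 stood at 10.12, 10.04 and 10.13 after 24 h, against 11.15, 11.35 and 11.36 in siCONTROL, a change of -1.19 (adjusted p = 8.5e-13) that left 43.9%. After 4 h it stood at 11.13, 10.91 and 11.02 (-0.26, adjusted p = 0.028), a change that was -0.15 without the low arrays (adjusted p = 0.77, 1 array at 4 h) and that did not pass in 4 of 6 fits that left out 1 array. In MDA231, then, ODC1 was lowest at 24 h, whereas MYC was lowest at 4 h, and the 24 h minus 4 h difference of ODC1 was -0.92 (adjusted p = 4.9e-10). In SUM159PT, ODC1 stood at 10.23, 10.18 and 10.24 after 24 h, against 10.69, 10.77 and 10.77 in siCONTROL (-0.53, adjusted p = 9.5e-05, 69.5%). The 4 h change there was -0.04 (adjusted p = 0.81). In BT549, ODC1 stood at 11.07, 11.32 and 11.25 after 24 h, against 11.37, 11.36 and 11.27 in siCONTROL (-0.12, adjusted p = 0.32), a sign that turned to 0.14 when array medians were aligned. The 24 h change of ODC1 differed between the lines (F test, adjusted p = 2.2e-07).

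ODC1 was also among the members that rose with siDUSP4. It stood at 11.60, 11.76 and 11.61 in MDA231, above the 11.15 to 11.36 of siCONTROL (0.37, adjusted p = 0.0012). In BT549 it stood at 11.61, 11.64 and 11.64, above the 11.27 to 11.37 of siCONTROL (0.30, adjusted p = 0.012). SUM159PT showed 10.79, 10.78 and 10.80, against 10.69, 10.77 and 10.77 in siCONTROL (0.05, adjusted p = 0.87), and the mean of the lines was 0.24 (adjusted p = 0.00036). AMD1 went the same ways: with siDUSP4 it changed by 0.42 in MDA231 (adjusted p = 0.045), 0.47 in BT549 (adjusted p = 0.029) and 0.15 in SUM159PT (adjusted p = 0.75), and after 24 h of AZD6244 by -0.59 in MDA231 (adjusted p = 0.0037), where it stood at 8.39, 8.16 and 8.50, against 9.02, 8.92 and 8.87 in siCONTROL. The 24 h change of AMD1 was -0.24 in SUM159PT (adjusted p = 0.46) and -0.09 in BT549 (adjusted p = 0.72, turning to 0.18 without the low array, to 0.17 with array medians aligned and to 0.11 with the quantile normalization repeated). SRM had a mean change over the lines of -0.19 at 24 h, which did not pass with all arrays (adjusted p = 0.093) and did pass without the 3 low arrays (-0.19, adjusted p = 0.019). Its mean change was -0.01 with siDUSP4 (adjusted p = 0.97, 0.05 with array medians aligned). Its fall in MDA231 at 4 h (-0.42, adjusted p = 0.05, with 4 h arrays at 10.25, 9.26 and 9.55 against siCONTROL arrays at 9.90, 9.99 and 10.42) turned to 0.14 without the low arrays.

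At 4 h, the median change of the other members was small beside the change of MYC. In MDA231, 17 of the other 39 fell and 1 rose (median -0.28), where 14.5% of all genes were called lower and 1.11% higher and the median over all genes was -0.13. Without arrays B and C, MYC and DDX21 were the members called, both lower, where 0.702% of all genes were called lower, and the count of all 40 ran from 7 (without array B) to 29 (without array A) when 1 array was left out. DDX21, an RNA helicase that unwinds RNA at polymerase I and in pre-ribosomes, stood at 10.02, 9.77 and 9.93 after 4 h, against 10.47, 10.37 and 10.26 in siCONTROL (-0.46, adjusted p = 0.00015, and -0.35 with adjusted p = 0.042 for the 1 array left without the low arrays). RRS1 stood at 8.33, 7.38 and 7.45, against 8.82, 8.83 and 8.77 in siCONTROL (-1.09, adjusted p = 9.5e-06), with its lowest values on arrays B and C, and its change was -0.48 without them (adjusted p = 0.083). NIP7, which acts in large-subunit processing, changed by -0.61 (adjusted p = 5.9e-05), and by -0.33 without the low arrays (adjusted p = 0.19). URB2, a nucleolar large-subunit factor, changed by -0.98 (adjusted p = 0.00027), and by -0.51 without them (adjusted p = 0.32). The box C/D methyltransferase gene FBL was the member that rose, at 11.29, 11.31 and 11.50, against 11.02, 11.11 and 11.17 in siCONTROL (0.27, adjusted p = 0.019, and 0.19 with adjusted p = 0.58 without the low arrays).

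In SUM159PT, DDX21 was the other member called besides MYC at 4 h, at 10.33, 10.54 and 10.45, against 10.73, 10.79 and 10.77 in siCONTROL (-0.32, adjusted p = 0.014); 3.81% of all genes were called lower and 0.473% higher there. In BT549, limma called 0 of 40 members, with 0.49% of all genes called lower and 0.161% higher; 9 members were lower and 0 higher at an unadjusted p under 0.05, and other settings called 0 to 6, all lower. DDX21 in BT549 stood at 10.57, 10.52 and 10.61, below the 10.85 to 10.89 of siCONTROL (-0.30, adjusted p = 0.07). As a mean of the lines, 14 of the 39 fell and 1 rose, FBL (0.14, adjusted p = 0.034), where 12.7% of all genes were called lower and 1.12% higher. Without the 3 low arrays 10 of the 39 fell and 0 rose, where 5.63% were called lower and 1.68% higher, and FBL was at 0.11 (adjusted p = 0.11). After MYC, the largest mean changes at 4 h were URB2 (-0.54, adjusted p = 0.00042), NLE1 (-0.46, adjusted p = 0.0017), RRS1 (-0.45, adjusted p = 0.00065), NIP7 (-0.39, adjusted p = 8.2e-06) and WDR43 (-0.38, adjusted p = 0.00014). DDX21 had a mean of -0.36 with the smallest adjusted p after MYC (9.3e-07). Their order rested on the low arrays: without them URB2 was at -0.38, DDX21 at -0.33, NIP7 and NLE1 at -0.30, WDR43 at -0.29 and RRS1 at -0.25, all still called. Relative to all genes the median of the 40 members was -0.09 at 4 h, and -0.03 with the quantile normalization repeated.

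At 24 h, most measured genes of ribosome assembly were lower in the mean of the lines. Of the other 39 members, 34 fell and 0 rose (median -0.36), where 19.2% of all genes were called lower and 7.24% higher and the median over all genes was -0.01. Leaving out the 3 low arrays gave 36 of 40 members lower, and repeating the quantile normalization gave 30; with array medians aligned 29 were lower and 1 higher. All arrays were lysates of whole cultures, in which fewer cells of a type and less RNA per cell cannot be told apart. MDA231 responded most, with 31 of 39 lower and 0 higher (median -0.58), where 10.3% of all genes were called lower and 7.36% higher. SUM159PT had 11 lower and 0 higher (median -0.28), where 2.94% and 1.34% were called, and 4 to 10 of 40 were called when 1 array was left out. BT549 had 13 lower and 0 higher (median -0.25), where 12.4% and 2.66% were called and the median over all genes was -0.09. The BT549 count depended on the scaling: 1 member was lower with the quantile normalization repeated, 0 with array medians aligned, 7 of 40 without the 3 low arrays, and 0 to 17 when 1 array was left out, 0 of them without siCONTROL array B and 17 without 24 h array B. Against all genes, the median of the members in BT549 was -0.16 as deposited and -0.05 with the quantile normalization repeated, beside -0.61 and -0.55 in MDA231 and -0.26 and -0.23 in SUM159PT. With dim genes left out it was -0.07 in BT549, -0.56 in MDA231 and -0.22 in SUM159PT. The median over the genes kept was then -0.18 in BT549. In the mean of the lines, 3620 of the 11344 genes kept were then called lower at 24 h, among them 35 of 40 members.

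The large-subunit factors fell together at 24 h, 12 of 12 in the mean of the lines with a median of -0.42. RRS1 had the largest mean change (-0.66, adjusted p = 1.4e-06). It stood at 7.66, 7.23 and 7.61 in MDA231 at 24 h, against 8.82, 8.83 and 8.77 in siCONTROL (-1.31, adjusted p = 8.2e-08). In BT549 RRS1 stood at 10.01, 10.37 and 10.46 at 24 h, against 10.39, 10.40 and 10.62 in siCONTROL (-0.19, adjusted p = 0.41), and its 24 h change differed between the lines (F test, adjusted p = 0.0013). URB2 had a mean of -0.58 (adjusted p = 4.7e-05). NIP7 fell in each line: it stood at 9.44, 9.42 and 9.64 at 24 h in MDA231, against 10.08, 10.38 and 10.37 in siCONTROL (-0.77, adjusted p = 2.5e-07). In SUM159PT it stood at 9.75, 9.65 and 9.78, against 10.09, 10.13 and 10.17 in siCONTROL (-0.40, adjusted p = 0.011), and in BT549 at 10.37, 10.38 and 10.45, against 10.69, 10.80 and 10.76 in siCONTROL (-0.35, adjusted p = 0.016). NIP7 groups did not overlap in any line. The 3 genes of the PeBoW complex, which processes the large-subunit RNA, were all lower in the mean: WDR12 by -0.42 (adjusted p = 3.2e-05), PES1 by -0.27 (adjusted p = 0.0019) and BOP1 by -0.24 (adjusted p = 0.026).

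Of the 11 small-subunit members, 10 fell at 24 h with a median of -0.43. PNO1, which holds the late small-subunit precursor, stood at 7.83, 7.76 and 8.06 in MDA231, against 8.53, 8.54 and 8.57 in siCONTROL (-0.66, adjusted p = 2.9e-05), and it also fell in SUM159PT (-0.48, adjusted p = 0.0081) and BT549 (-0.34, adjusted p = 0.035). Without the low array the BT549 change of PNO1 was -0.18 (adjusted p = 0.24). The second probe of PNO1, with a mean level of 4.77 over all arrays, gave a mean change of -0.21 where the probe used gave -0.50. UTP20, a large scaffold of the processome that folds the small-subunit precursor, stood at 7.51, 7.66 and 7.49 in SUM159PT, against 8.13, 8.06 and 8.03 in siCONTROL (-0.52, adjusted p = 0.0021). HEATR1, another processome protein that also acts on polymerase I, changed by -0.35 in MDA231, -0.34 in SUM159PT and -0.38 in BT549 (adjusted p = 0.0074, 0.031 and 0.0084). In BT549, HEATR1 stood at 9.78, 9.90 and 9.81 at 24 h, against 9.91, 10.36 and 10.35 in siCONTROL, where array A lay below arrays B and C. NOB1, the nuclease that makes the last cut of the small-subunit RNA, was the small-subunit member that did not pass (-0.09, adjusted p = 0.26).

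DDX21 had the smallest adjusted p of the ribosome members in the mean at 24 h (-0.49, adjusted p = 1e-09). It stood at 9.51, 9.50 and 9.50 in MDA231, against 10.47, 10.37 and 10.26 in siCONTROL (-0.86, adjusted p = 4e-10). In SUM159PT it stood at 10.33, 10.43 and 10.47, against 10.73, 10.79 and 10.77 in siCONTROL (-0.35, adjusted p = 0.0065), and in BT549 at 10.57, 10.65 and 10.62, against 10.87, 10.89 and 10.85 in siCONTROL (-0.25, adjusted p = 0.028). The DDX21 arrays of both times lay below all siCONTROL arrays in every line, but its 24 h change differed in size between the lines (F test, adjusted p = 0.00036). DDX21, HEATR1, NIP7, NOP58 and PNO1 were the 5 members called lower in all 3 lines at 24 h. Another 13 were called in 2 lines and 16 in 1 line. Of all genes, 10.3% were called lower in MDA231, 2.94% in SUM159PT and 12.4% in BT549. How many of all genes were called in several lines was not counted. Without the low array, NOP58 (-0.21, adjusted p = 0.086) and PNO1 did not pass in BT549, while DDX21, HEATR1 and NIP7 did.

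The polymerase I subunits POLR1A, POLR1B and POLR1C all fell in the mean, by -0.20, -0.42 and -0.35 (adjusted p = 0.013, 7.9e-06 and 0.00074). Modification particles divided. NOP58, the core protein of box C/D particles, fell (-0.39, adjusted p = 3.9e-07), while FBL, its methyltransferase partner, did not (0.04, adjusted p = 0.60). FBL in MDA231 stood at 11.20, 11.20 and 11.08 at 24 h, against 11.02, 11.11 and 11.17 in siCONTROL, so that 2 of the 24 h arrays lay above the siCONTROL arrays and 1 among them. Of the H/ACA genes, DKC1 changed by -0.33 (adjusted p = 1.3e-06) and GAR1 by -0.23 (adjusted p = 0.0043), while NHP2 changed by -0.14 (adjusted p = 0.20). LYAR (-0.53, adjusted p = 3.1e-06), the snoRNP chaperone gene NOLC1 (-0.36, adjusted p = 1.1e-06), RRP1B (-0.34, adjusted p = 1.5e-05) and nucleolin, NCL (-0.14, adjusted p = 0.02), fell. NPM1, which makes the bulk nucleolar protein nucleophosmin, changed by 0.05 (adjusted p = 0.46). NPM1 and NHP2 have near-identical copies elsewhere in the genome, so their probes may pick up more than 1 locus; the 4 NPM1 probes gave mean changes of -0.03 to 0.05. The 6 genes called in no line at 24 h were FBL, NCL, NHP2, NOB1, NPM1 and SRM.

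**Figure D3:**
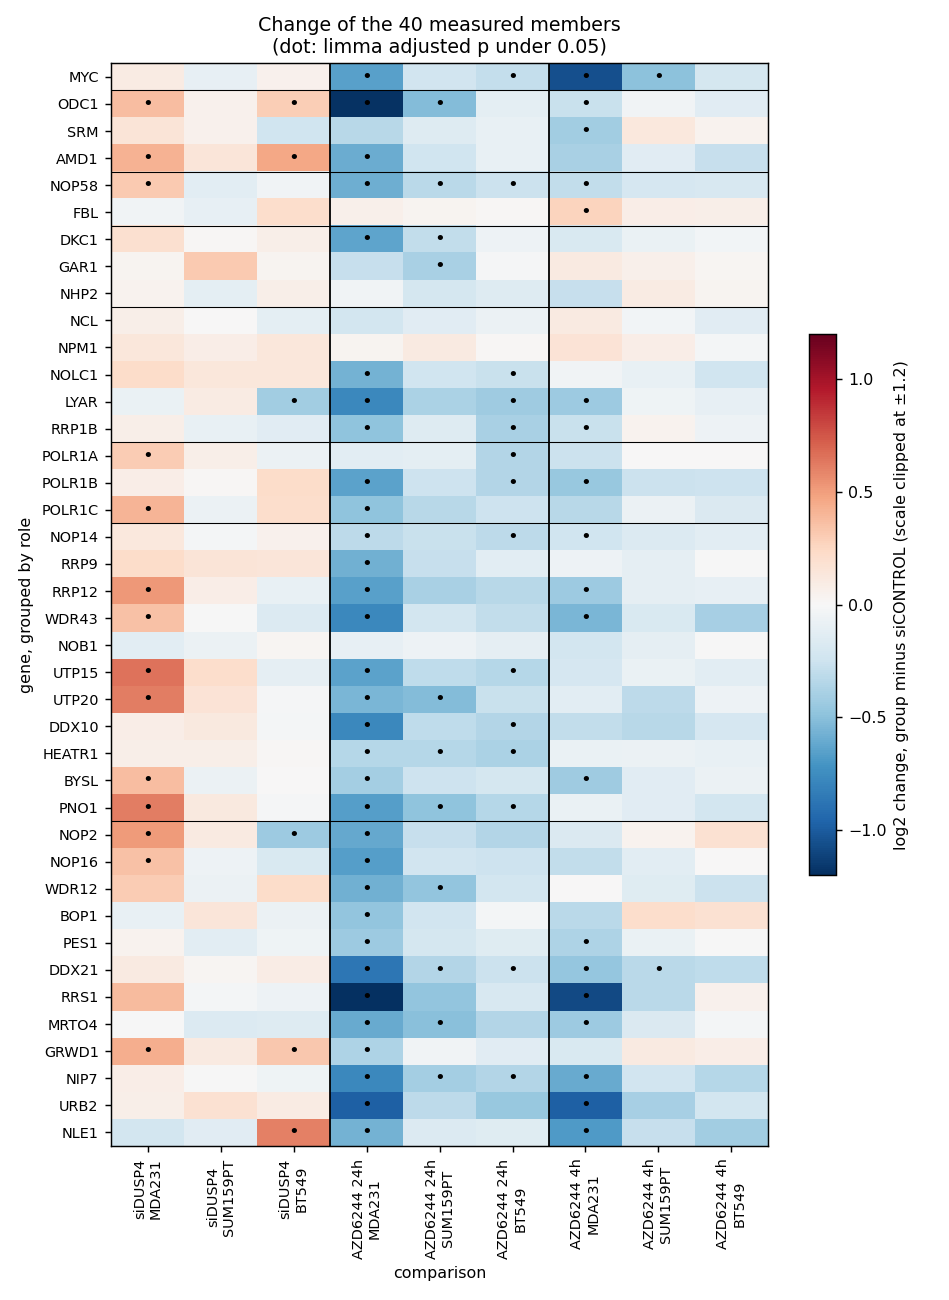
Log2 change against siCONTROL (colour, clipped at the ends of the scale) of the 40 measured members (rows, grouped by role) for each treatment and line (columns); a dot marks a limma adjusted p under 0.05. Of the members besides MYC, 31 were lower in MDA231 at 24 h, 11 in SUM159PT and 13 in BT549, while siDUSP4 columns hold 14 higher members in MDA231.

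In MDA231 and SUM159PT, MYC lay further below siCONTROL at 4 h than at 24 h, and the median of the other members lay further below at 24 h. In MDA231 the MYC change was -1.05 at 4 h and -0.66 at 24 h, and the median of the other 39 was -0.28 at 4 h and -0.58 at 24 h. In SUM159PT the MYC change was -0.50 at 4 h and -0.23 at 24 h, and the median of the others -0.11 at 4 h and -0.28 at 24 h; the 4 h median turned to 0.03 for all 40 members with array medians aligned. In BT549 both were lower at 24 h, MYC at -0.21 at 4 h and -0.28 at 24 h and the median of the others at -0.09 at 4 h and -0.25 at 24 h. All of these values share the siCONTROL arrays of their line. Set directly against each other in the mean of the lines, the 24 h arrays were lower than the 4 h arrays for 19 of the 39 and higher for 0, where 4.47% of all genes were called lower and 7.65% higher, and MYC was higher, as given above. In single lines the MYC difference was less firm. It was 0.40 in MDA231, but 0.13 without the low arrays, and in SUM159PT it did not pass (0.265, limma adjusted p = 0.17). In MDA231, 17 of the 39 were lower and 0 higher, where 4.48% were called lower and 20.4% higher; without the low arrays 25 were lower, set against the 1 array left at 4 h. In SUM159PT 2 were lower and 0 higher (0.685% and 2.32% of all genes). In BT549 3 were lower and 0 higher (5.82% and 1.91% of all genes). With array medians aligned 0 of 40 were lower and 8 higher, where 221 of all 17958 genes were lower and 3783 higher. The median over all genes was then 0.18, above the 0.13 of the members. Without the low array 2 were lower and 1 higher (2.73% and 2.73% of all genes). Of 13 ERK output genes, 7 were higher and 3 lower at 24 h than at 4 h in the mean of the lines. DUSP6 was higher at 24 h than at 4 h by 0.88 (adjusted p = 4.6e-06) and SPRY4, a feedback inhibitor of the pathway, by 0.98 (adjusted p = 1.4e-06), as means of the lines.

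**Figure D4:**
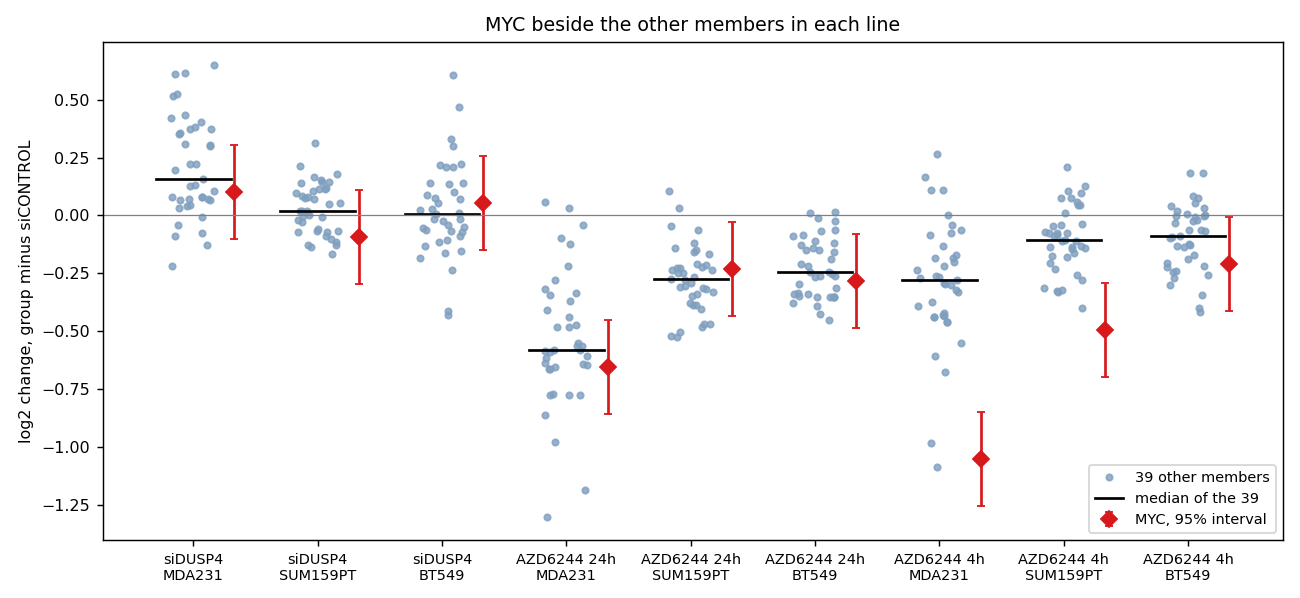
Log2 change against siCONTROL (vertical axis) for each treatment and line (horizontal axis); small points are the other 39 members, the black bar is their median, and the diamond is MYC with its 95% interval. At 4 h in MDA231 MYC (-1.05) lay below the median of the others (-0.28), and at 24 h they were close (-0.66 and -0.58); in BT549 at 24 h the fall of the members was lost with array medians aligned.

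DUSP4 knockdown raised ribosome members in MDA231 with no change of MYC mRNA that passed the test. In MDA231, 14 of the 39 rose and 0 fell (median 0.16), where 7.86% of all genes were called higher and 9.77% lower. Small-subunit genes led, with 6 of 11 higher. UTP15, which sits in the processome branch that loads on new ribosomal RNA, stood at 9.24, 9.18 and 9.30 with siDUSP4, against 8.61, 8.61 and 8.54 in siCONTROL (0.65, adjusted p = 2.6e-05). UTP20 stood at 9.53, 9.60 and 9.63, against 8.85 to 9.07 over the 3 siCONTROL arrays (0.62, adjusted p = 4.7e-05). PNO1 stood at 9.10, 9.24 and 9.12, against 8.53, 8.54 and 8.57 in siCONTROL (0.61, adjusted p = 0.00012). The second PNO1 probe, near the bottom of the scale, changed by 0.08 in MDA231 and by -0.055 in the mean of the lines. RRP12, which takes part in export of both subunits, rose by 0.52 (adjusted p = 0.0026), and NOP2, a methyltransferase of the large-subunit RNA, by 0.51. UTP15, UTP20 and PNO1 are 3 of the small-subunit genes that fell in MDA231 at 24 h of AZD6244; both changes share the same siCONTROL arrays. Leaving out 1 of the 6 arrays left 8 to 12 higher, the lowest counts being 8 without siCONTROL A, 8 without siDUSP4 B and 9 without siDUSP4 A. With siDUSP4 in MDA231, SPRY4 changed by -0.78 (limma adjusted p = 0.0093) and DUSP6 by -0.22 (adjusted p = 0.60). In SUM159PT and BT549 SPRY4 changed by 0.30 and 0.61 (adjusted p = 0.62 and 0.053), and DUSP6 by 0.04 and -0.06. As means of the lines, the ERK output genes PHLDA1 (-0.39) and ETV4 (-0.38) fell, while SPRY4 (0.04) and DUSP6 (-0.08) did not pass. The part of ERK in the rise of members was not tested.

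In SUM159PT limma called 0 of 40 members with siDUSP4, where 1.05% of all genes were called higher and 1.78% lower; 1 was higher and 0 lower at an unadjusted p under 0.05, and other settings called 0 to 3, all higher. In BT549, 4 of the 39 rose and 2 fell (median 0.01), where 4.97% of all genes were called higher and 9.22% lower. NLE1, which readies the late large-subunit precursor for export, stood at 8.75, 8.68 and 8.76, against 8.33, 8.10 and 7.93 in siCONTROL (0.61, adjusted p = 0.013). AMD1, GRWD1 (0.33, adjusted p = 0.04) and ODC1 were the other risers. NOP2 fell by 0.43 (adjusted p = 0.02), at 9.60, 9.67 and 9.68 with siDUSP4, against 9.61, 10.29 and 10.35 in siCONTROL. The siCONTROL array A lay with the siDUSP4 arrays, so the NOP2 groups overlapped. LYAR fell by 0.41 (adjusted p = 0.028). With array medians aligned, 9 of 40 members were higher in BT549 and 0 lower, where 2950 of all 17958 genes were higher and 1106 lower. The median was then 0.151 over all genes and 0.147 over the members. Leaving out 1 of the 6 arrays left 1 to 4 calls in BT549, 1 of them without siCONTROL array B and 1 without siCONTROL array C.

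As a mean of the lines, 7 of the 39 rose with siDUSP4 and 0 fell (median 0.08), where 7.43% of all genes were called higher and 11.3% lower. They were AMD1 (0.34, adjusted p = 0.0036), GRWD1, a histone-binding factor of the large subunit (0.29, adjusted p = 0.0012), UTP20 (0.26, adjusted p = 0.0022), UTP15 (0.25, adjusted p = 0.0029), ODC1, PNO1 (0.24, adjusted p = 0.0073) and NOLC1 (0.17, adjusted p = 0.012). The count rose to 15 higher with the quantile normalization repeated and to 17 with array medians aligned. The number higher among all 17958 genes rose as well, from 1335 to 2116 and 2760 in the same order. With array weights 13 members were higher and 2 lower, where 2614 of all genes were higher and 3468 lower.

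The lines differed in their response to siDUSP4 for 9 members, to 4 h of AZD6244 for 2 and to 24 h for 5 (limma F test of the line differences), where 15.5%, 1.84% and 9.91% of all genes were called; without the 3 low arrays 1 differed at 4 h and 19 at 24 h. NOP2 had the smallest adjusted p for siDUSP4 (0.0013), with changes of 0.51 in MDA231, 0.11 in SUM159PT and -0.43 in BT549. UTP15 changed by 0.65, 0.21 and -0.11 in the same order (adjusted p = 0.0016). NLE1 ran the opposite way, at -0.22, -0.14 and 0.61 (adjusted p = 0.024). After 24 h of AZD6244 the 5 were ODC1, DDX21, RRS1, DKC1 and WDR43, each with its largest fall in MDA231.

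Lists of related genes that are no members were counted in the same fits. The shares of all genes called lower in the mean of the lines were 19.2% at 24 h and 12.7% at 4 h, and without the 3 low arrays 19.6% and 5.63%. With dim genes left out, 3620 of 11344 genes were called lower at 24 h and 2731 at 4 h, which are larger shares. Of 33 other small-subunit processome genes, 28 fell at 24 h and 16 at 4 h in the mean of the lines, with 0 higher, and without the 3 low arrays 31 and 13 fell. WDR3 (-0.47, adjusted p = 5.6e-08) and MPHOSPH10 (-0.53, adjusted p = 2.5e-07), both processome scaffolds, led at 24 h. Of 39 other large-subunit genes 29 fell at 24 h and 15 at 4 h (31 and 7 without the low arrays), led at 24 h by the GTPase gene GTPBP4 (-0.54, adjusted p = 3.7e-09) and by NOC3L (-0.59, adjusted p = 7e-08). Of 11 other polymerase I genes 6 fell at each time (7 at 24 h and 3 at 4 h without the low arrays), led by the subunit gene POLR1G at 24 h (-0.56, adjusted p = 1.4e-08). Of the cytoplasmic ribosomal protein genes 2 of 39 were lower at 24 h and 0 higher, with a median of 0.02, and 1 lower at 4 h; without the low arrays 5 were lower and 3 higher at 24 h and 0 lower at 4 h. The 2 were RPS24 (-0.48, adjusted p = 1.2e-05) and RPL11 (-0.15, adjusted p = 0.04).

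Other genes activated by MYC fell in 18 of 28 cases at 24 h, and in 4 at 4 h, a share near that of all genes (17 at 24 h and 1 at 4 h without the low arrays). They were led at 24 h by the pseudouridine synthase gene PUS7 (-0.69, adjusted p = 4.8e-09) and by CAD, the first enzyme of pyrimidine synthesis (-0.48, adjusted p = 6.5e-06). Of 10 genes repressed by MYC, 2 rose and 2 fell at 24 h and 3 fell at 4 h; CDKN1A, the cell cycle inhibitor p21, was among those that fell at 4 h (-0.76, adjusted p = 2e-05). Of 17 MYC network partners, 5 fell and 1 rose at 24 h (4 and 4 without the low arrays). For both of these lists, 19.2% of all genes were called lower and 7.24% higher at 24 h, and 19.6% and 13.2% without the low arrays. The partners of smallest adjusted p were MXD1, a MAX partner that opposes MYC (-0.55, adjusted p = 3.3e-06), and FBXW7, the ubiquitin ligase subunit that marks MYC for destruction (-0.46, adjusted p = 4e-06). All 13 ERK output genes fell at both times, with medians of -0.94 at 24 h and -0.92 at 4 h. With siDUSP4, 9 of the 39 large-subunit genes rose and 0 fell, led by LAS1L (0.26, adjusted p = 0.001), while 2 of the 33 small-subunit genes rose and 2 fell. Of all genes, 7.43% were called higher and 11.3% lower there, so the small-subunit counts did not exceed those shares. MXI1, another opponent of MYC, fell with siDUSP4 by 0.58 (adjusted p = 6.8e-08).

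Markers of other cells were read in the same arrays. The mean level of 8 blood and endothelial markers lay between 4.11 and 4.99 over the 24 h arrays, 3.99 and 4.91 over the 4 h arrays, 4.03 and 4.88 over the siDUSP4 arrays and 4.06 and 5.00 over the siCONTROL arrays, a mean near the bottom of the scale. Single markers stood higher in siCONTROL: PECAM1 at 7.37 in MDA231 and 7.11 in SUM159PT, and CD14 at 6.94 in SUM159PT. As a mean of the lines PECAM1 fell at 24 h (-0.58, limma adjusted p = 3.4e-06), at 4 h (-0.295, adjusted p = 0.016) and with siDUSP4 (-0.41, adjusted p = 0.00046). LYZ rose with siDUSP4 (0.27, adjusted p = 0.0079). Of 9 luminal and epithelial markers, 4 rose at 24 h in the mean of the lines and 0 fell, KRT18 by 0.26 (adjusted p = 0.005); the mean level of the 9 lay between 5.92 and 7.20 over the 24 h arrays and 6.19 and 6.90 over the siCONTROL arrays. Of 6 mesenchymal markers, 4 fell with siDUSP4 and 0 rose, the mean level of the 6 lying between 10.11 and 11.22 over siDUSP4 arrays and 10.34 and 11.34 over siCONTROL arrays. In the mean of the lines, 7.24% of all genes were called higher and 19.2% lower at 24 h. With siDUSP4 7.43% were called higher and 11.3% lower. The part of these markers in the results was not tested.

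**Figure D5:**
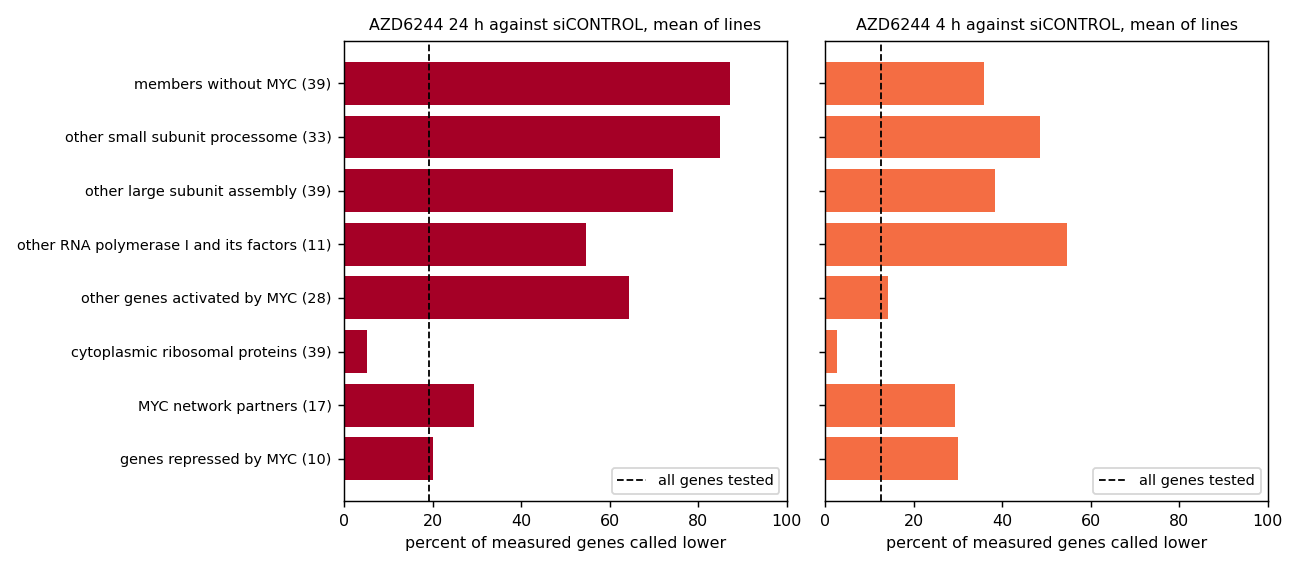
Percent of the measured genes of each list (vertical axis, number measured in brackets) called lower by limma in the mean of the lines at 24 h and 4 h of AZD6244 (horizontal axis); the dashed line is the percent over all 17958 genes (19.2% at 24 h and 12.7% at 4 h). Ribosome assembly lists pass the dashed line, and ribosomal protein genes stay below it. With array medians aligned the 4 h count of all 40 members, MYC included, was 9 lower in place of 15. The count over all genes was then 977 lower in place of 2280. The dashed line includes dim genes, and without them 3620 of 11344 genes were called lower at 24 h and 2731 at 4 h.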

How the data were processed

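Total RNA was hybridised to 36 single-colour Affymetrix gene arrays. The submitters' processing notes name RMA and version 1.1 of Affymetrix Expression Console, and the authors deposited the resulting log2 values; for the summary level and genome build the answer is not given in the sources used here. Of 33297 probes, 19181 carried 1 gene symbol in the platform annotation, 2055 several and 12061 none, and 19143 of the first kind had a gene ID found in the reference. For 895 genes with several probes the one with the highest mean was kept, leaving 17958 genes, all tested.

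Genes were tested with limma 3.58.1 in R 4.3.3 (lmFit, eBayes), with 1 mean for each of 12 groups over all 36 arrays (24 residual and 7.8 prior degrees of freedom). Treatments were set against siCONTROL within each line and averaged over the 3 lines, and line differences were tested with an F test. P-values were adjusted by Benjamini-Hochberg over all 17958 genes and called at an adjusted p under 0.05. No pair of arrays was identical. The fit was tested on simulated data. Alternatives were a second quantile normalization, array medians aligned, dim genes left out (kept above a mean of 5.33), the mean of probes, a trend with robust eBayes, array weights, fewer arrays in the fit, a replicate block and leaving out arrays. Named were MYC, ODC1, SRM and AMD1 in every comparison, per line and treatment the called members of smallest adjusted p, in the mean of the lines the 6 largest changes, and up to 3 called genes of each list; every member could be named. The members and lists were chosen with earlier results of these data known. Promoter sequences came from RefSeq (GRCh38.p14). Tables and figures were made with Python 3.11.15, pandas 2.3.3, numpy 2.4.6 and matplotlib 3.10.9.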

Additional observations from a re-analysis of the deposited data

Results flagged for a closer look

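The results below were picked out because the change of a member differed between the 3 lines by the limma F test; the values are adjusted p over all genes. For siDUSP4 these were NOP2 (0.0013), UTP15 (0.0016), UTP20 (0.0065), PNO1 (0.01), NOP58 (0.02), NLE1 (0.024), NOP16 (0.031), RRP12 (0.036) and WDR43 (0.05). All of these except NLE1 had their highest change in MDA231, and NLE1 had its highest in BT549. NOP16 did not pass with a replicate block (0.054) or with array medians aligned (0.066), RRP12 did not pass with a replicate block (0.055), and with array medians over all probes aligned RRP12 (0.061), NOP16 (0.067) and WDR43 (0.083) did not. PNO1 did not pass with the mean of its probes (0.087). For 4 h of AZD6244 they were MYC (0.0013) and RRS1 (0.0065), both with their largest fall in MDA231; RRS1 did not pass without the 3 low arrays (0.086). For 24 h of AZD6244 they were ODC1 (2.2e-07), DDX21 (0.00036), RRS1 (0.0013), DKC1 (0.0016) and WDR43 (0.032), all with their largest fall in MDA231 and all passing without the 3 low arrays and with the quantile normalization repeated. Of all genes, 15.5% differed between the lines for siDUSP4, 1.84% for 4 h of AZD6244 and 9.91% for 24 h. Which of SUM159PT and BT549 a value belongs to rests on the titles.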

How the results depend on the processing

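The fall of most members at 24 h in the mean of the lines (33 to 38 of 40 called lower in most fits, and 30 called with either rescaling), their fall in MDA231 at 24 h and the fall of MYC at 4 h in MDA231, SUM159PT and the mean kept their direction and their side of the threshold in every alternative run; counts in single lines of the other comparisons did not. With 3 arrays a group and small changes, members in SUM159PT and BT549 lie close to the threshold. Aligned medians over all probes, the fit without the 3 low arrays, and all alternatives on 24 h against 4 h were chosen after seeing the data. The cause of the differences between settings was not tested. Shares of all genes differing between lines are given only for the deposited values with all arrays.

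With the quantile normalization repeated, members called were 1 for siDUSP4 in SUM159PT and 15 in the mean, 11 at 4 h in MDA231 and 2 in BT549, 1 at 24 h in BT549, and 31, 12 and 0 for 24 h against 4 h in MDA231, SUM159PT and BT549. MYC passed in SUM159PT at 24 h (-0.21) and for 24 h against 4 h (0.25), AMD1 at 24 h in BT549 turned to 0.11, and 14 members differed between lines with siDUSP4 and 19 at 24 h. With array medians aligned, counts were 17 for siDUSP4 in the mean, 10, 1, 1 and 10 at 4 h in MDA231, SUM159PT, BT549 and the mean, 0 at 24 h in BT549, and 30 and 11 for 24 h against 4 h in MDA231 and SUM159PT, with 8 higher in BT549. Of all 17958 genes, 2760 were then higher with siDUSP4 in the mean and 3783 for 24 h against 4 h in BT549. MYC was then -0.025 in BT549 at 24 h, 0.18 for 24 h against 4 h in BT549 and 0.17 for BT549 minus MDA231. In BT549 at 24 h AMD1 (0.17), ODC1 (0.14) and SRM (0.17) turned sign, as did AMD1 (0.003) and ODC1 (0.10) in SUM159PT at 4 h and SRM in the mean at 4 h (0.023) and with siDUSP4 (0.047). The members differing between lines were 14 with siDUSP4 and 25 at 24 h, against 8 at 24 h with medians over all probes aligned, where MYC was 0.18 for SUM159PT minus BT549.

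Without the 3 low arrays, 2 members were called at 4 h in MDA231 and 7 at 24 h in BT549, and 1 and 19 differed between lines at 4 h and 24 h. MYC was -0.18 at 24 h in BT549 and 0.13 and 0.035 for 24 h against 4 h in MDA231 and BT549. AMD1 turned to 0.18 at 24 h in BT549 and SRM to 0.14 and 0.10 at 4 h in MDA231 and the mean. With array weights, counts were 3, 14 and 15 for siDUSP4 in SUM159PT, BT549 and the mean, 5, 10 and 6 at 4 h in MDA231, SUM159PT and BT549, 27 at 24 h in SUM159PT, and 5, 13 and 6 for 24 h against 4 h in MDA231, SUM159PT and BT549, with 20 and 23 differing between lines for siDUSP4 and 24 h. MYC was then -0.23 and -0.17 at 24 h in SUM159PT and BT549 and 0.41, 0.26 and 0.009 for 24 h against 4 h in the 3 lines, and AMD1 0.10 at 24 h in BT549. Leaving out dim genes gave 1 call at 4 h in BT549, and eBayes with trend 3, with 8 differing between lines at 24 h.

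Fits to the 12 arrays of a line called 5, 1 and 1 members with siDUSP4 in MDA231, SUM159PT and BT549, 5 and 7 at 4 h in MDA231 and SUM159PT, 22 and 3 at 24 h in SUM159PT and BT549, and 11, 12 and 0 for 24 h against 4 h. MYC kept its values there (-0.23 in SUM159PT and -0.28 in BT549 at 24 h, 0.40 and 0.26 for 24 h against 4 h in MDA231 and SUM159PT), now passing in SUM159PT and missing in BT549 and MDA231. Fits to the 6 arrays of a pair of groups called 2 and 6 at 4 h in MDA231 and SUM159PT, 19 and 0 at 24 h in SUM159PT and BT549, and 2 and 0 for 24 h against 4 h in MDA231 and BT549, and MYC missed at 24 h in BT549 (-0.28) and for 24 h against 4 h in MDA231 (0.40).

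The replicate letters did not pair the arrays: 54 correlations of same-letter deviations ran from -0.41 to 0.45 (median -0.01), with 12 over 0.1. A replicate block left MYC at -0.28 in BT549 at 24 h (adjusted p = 0.066) and 0.24 for BT549 minus MDA231 (adjusted p = 0.15) and changed no other call of MYC; counts stayed within 1.5 times.

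Leaving out 1 array at a time gave 8 to 12 members for siDUSP4 in MDA231 and 1 to 4 in BT549, 7 to 29, 1 to 2 and 12 to 25 at 4 h in MDA231, SUM159PT and the mean, 4 to 10 and 0 to 17 at 24 h in SUM159PT and BT549, and 1 to 3 and 0 to 4 for 24 h against 4 h in SUM159PT and BT549. MYC ran from -0.37 to -0.18 at 24 h in BT549, from 0.26 to 0.53, -0.16 to 0.035 and 0.15 to 0.24 for 24 h against 4 h in MDA231, BT549 and the mean, and from 0.20 to 0.28 for BT549 minus MDA231. Members differing between lines ran from 5 to 9 for siDUSP4, 2 to 14 at 4 h (14 without MDA231 4 h array A) and 4 to 12 at 24 h. AMD1 at 24 h in BT549 ran from -0.28 to 0.18, and SRM with siDUSP4 from -0.006 to 0.12 in SUM159PT and -0.043 to 0.044 in the mean. Over the named genes 1306 values kept their side, 128 lost and 8 gained the call and 19 changed sign.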
